A study of Homo sapiens with 2 samples.

Results

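The genes of de novo lipogenesis did not differ as a block between FFA-loaded HepG2 cells without and with 9-cis-RA. Counts of SREBF1, SCD, ACACA and FASN were higher with 9-cis-RA by 2.87-, 1.78-, 1.65- and 1.5-fold, MLXIPL was higher by 1.14-fold, and ELOVL6, ACACB and ACLY were lower by 1.29-, 1.16- and 1.06-fold. ME1 and THRSP were close to absent from both libraries. The group holds 10 genes of the 60623 listed, chosen by their place in the pathway from citrate cleavage to the elongation and desaturation of palmitate, together with the regulators SREBF1, MLXIPL and THRSP, with no measured value in the rule, although earlier results of these data were known when the set was proposed. All 10 were found by Ensembl identifier, and 8 of them reached 10 counts when both libraries were summed and were compared.

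HepG2 is a human hepatocellular carcinoma line. RNA was sequenced from wild-type HepG2 cells in 2 groups, with 1 library in each. Both groups carried the same lipid load, namely 1 mM FFA for 24 h as oleic and palmitic acid at 2:1, bound to bovine serum albumin. The FFA + 9-cis-RA group also had 10 μM 9-cis-RA for 24 h, and the FFA group had no retinoid. By the study's methods the solvent, DMSO, was matched between groups. This retinoid is a ligand of RXR nuclear receptors and also activates RARs. Both libraries carry the label Batch 1, and nothing in the labels says how many cultures each came from. The comparison asks how transcripts differ with an RXR ligand in FFA-treated cells, so the FFA library is the baseline for every value. Cells without FFA were not analysed here. The study's methods place the ligand after FFA, while its results describe co-treatment.

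Because each group is 1 library, replicate error is unknown, and no p-value or SD is given. Each log2 fold change is FFA + 9-cis-RA over FFA, from counts divided by the DESeq2 size factor of the library plus a pseudocount of 1. Its exact 95% interval covers counting error only and compares these 2 libraries, not the treatments. Whether a difference comes from 9-cis-RA or from another difference between the cultures cannot be told apart. In RNA from bulk culture, more RNA per cell and more cells of a given state cannot be told apart either.

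The FFA library held 60821539 counts on genes and the FFA + 9-cis-RA library 57669670. The retinoid response genes CYP26A1, RARB and DHRS3 were higher where the label names 9-cis-RA, with log2 fold changes from 0.86 to 7.17. The 8 hepatocyte and hepatoma markers read here summed to 18931 CPM, meaning counts scaled to library size, without 9-cis-RA and to 16349 CPM with it, and the lowest of them, TTR, stood at 5.61 and 4.82 CPM. Markers of leukocytes, endothelial cells, stellate cells and fibroblasts, and adipocytes summed to at most 1.12 CPM per cell type in either library, and PTPRC, the pan-leukocyte marker, had 0 counts in both. Among the hepatocyte markers, ALB, GPC3 and AFP had log2 fold changes of -0.70, -0.69 and -0.99, the other 5 lay between -0.27 and 0.05, and their part in the values below was not tested.

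De novo lipogenesis turns surplus carbon into fatty acids in the liver cytosol. ACLY splits exported citrate into acetyl-CoA, ACACA carboxylates it to malonyl-CoA, FASN assembles palmitate at the expense of NADPH, and ELOVL6 and SCD lengthen and desaturate the product into the oleate that is esterified into triglyceride. The pathway is set largely at transcription, where SREBP-1c answers insulin and oxysterols through LXR-RXR heterodimers, and ChREBP, the product of MLXIPL, answers glucose.

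Together the 10 genes took 154158 of the counts of the FFA library, or 0.253% (exact binomial 95% interval 0.252 to 0.255). In the FFA + 9-cis-RA library they took 234097 counts, or 0.406% (0.404 to 0.408). SCD and FASN carried most of this: they held 69.6% of the group's counts without 9-cis-RA and 75.6% with it. SCD alone went from 46.0% to 52.8% of the group's counts, so the group's larger share of the FFA + 9-cis-RA library lay mainly in the desaturase and the synthase.

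Levels between genes were compared as FPKM, the CPM divided by the exon length in kilobases. In the FFA library the order was SCD at 222 FPKM, MLXIPL at 73.9, FASN at 64.2, ACLY at 41.9, ACACA at 6.88, SREBF1 at 6.55, ELOVL6 at 4.01 and ACACB at 1.64. In the FFA + 9-cis-RA library it was SCD at 408 FPKM, FASN at 99.4, MLXIPL at 87.1, ACLY at 40.8, SREBF1 at 19.4, ACACA at 11.8, ELOVL6 at 3.21 and ACACB at 1.47. FASN and MLXIPL thus exchanged places, as did ACACA and SREBF1. The genes ACACA and SREBF1 were the closest of these neighbours in the FFA library, with a ratio of the FPKM levels of 1.05 (95% counting interval 1.01 to 1.10), an interval that holds no replicate error. Among the 16115 protein-coding genes with a count, SCD ranked 117 by FPKM without 9-cis-RA and 56 with it, while SREBF1 ranked 5759 and 2333.

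**Figure D1:**
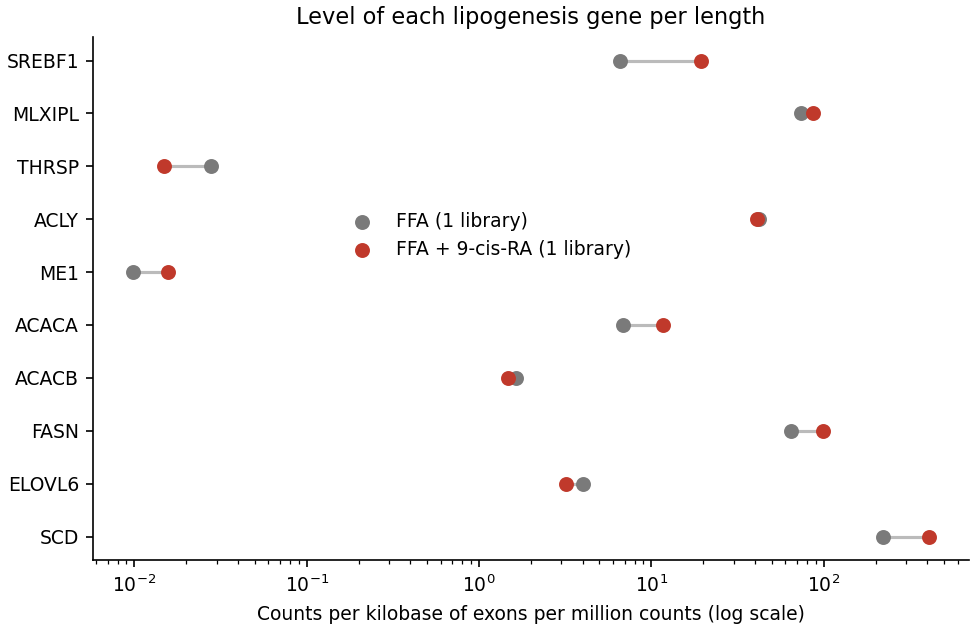
Level of each of the 10 genes as FPKM, on a log axis, with 1 point per library (grey, FFA; red, FFA + 9-cis-RA). SCD is the highest gene in both libraries, SREBF1 shows the widest gap of the 8 genes compared, and ME1 and THRSP lie below 0.03, where a level rests on 1 to 3 counts.

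SREBF1, the gene of the SREBP-1 transcription factors, had the largest difference of the group. It lies on the minus strand of chromosome 17 from 17810399 to 17837011 (ENSG00000072310, GRCh38), with 16 exon blocks, and its counts were 3282 without 9-cis-RA and 9232 with it. The log2 fold change was 1.52 (95% interval 1.46 to 1.58). Only 4 of the 10298 genes whose summed count reached 1000 had a higher value. RAI1, on the opposite strand, overlaps 6.75% of the exonic bases of SREBF1, and counting was stranded.

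MLXIPL encodes ChREBP, the carbohydrate-responsive partner of SREBP-1c in driving lipogenic enzymes. It lies on chromosome 7 between 73593194 and 73624543 (ENSG00000009950) and gave 21651 and 24189 counts (log2 fold change 0.19, 95% interval 0.16 to 0.21). At 73.9 and 87.1 FPKM its transcript was far above that of SREBF1 in both libraries, but its ratio to SREBF1 was 11.3 without 9-cis-RA and 4.49 with it. THRSP, or Spot 14, a thyroid hormone responsive protein that promotes lipogenesis, lies on chromosome 11 between 78063861 and 78068351 (ENSG00000151365) and had 2 counts and 1 count. Both counts are within the 3 counts that a count of 0 allows, equal to 0.0493 CPM without 9-cis-RA and 0.0520 CPM with it, so no fold is given.

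Of the enzymes that supply carbon and reducing power, ACLY was slightly lower and ME1 could not be compared. ACLY, ATP-citrate lyase, on chromosome 17 between 41866917 and 41930542 (ENSG00000131473), gave 13281 and 12259 counts (log2 fold change -0.09, 95% interval -0.12 to -0.05). This is a 1.06-fold lower value, small beside the quartiles of all genes with at least 1000 counts, which stood at -0.14 and 0.13. ME1, the cytosolic malic enzyme that yields NADPH, on chromosome 6 between 83210402 and 83431051 (ENSG00000065833), had 2 and 3 counts. No other gene overlaps its exons on the same strand, and its counts, too, were within the floor of 3, so no fold is given.

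The acetyl-CoA carboxylases differed in direction. ACACA encodes the cytosolic enzyme, whose malonyl-CoA feeds FASN, and ACACB encodes the enzyme at the mitochondrial outer membrane, whose malonyl-CoA restrains fatty acid entry into mitochondria. ACACA, on chromosome 17 between 37084992 and 37406836 (ENSG00000278540), gave 5450 and 8831 counts (log2 fold change 0.72, 95% interval 0.68 to 0.77). ACACB, on chromosome 12 between 109116595 and 109268226 (ENSG00000076555), gave 1450 and 1229 counts (log2 fold change -0.21, 95% interval -0.32 to -0.10). The ratio of ACACA to ACACB in FPKM was 4.19 without 9-cis-RA and 8.0 with it. This ratio needs no scaling between libraries, and it was higher by 0.93 on the log2 scale (95% interval 0.81 to 1.06).

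FASN, which builds palmitate from acetyl-CoA and malonyl-CoA, lies on chromosome 17 between 82078338 and 82098294 (ENSG00000169710) and gave 36417 and 53443 counts (log2 fold change 0.58, 95% interval 0.56 to 0.60). Relative to ACLY, the enzyme that supplies its acetyl-CoA, FASN was 1.59 times higher in the FFA + 9-cis-RA library (1.55 to 1.64). SCD, the delta-9 desaturase that makes oleate and palmitoleate, lies on chromosome 10 between 100347233 and 100364826 (ENSG00000099194) and gave 70844 and 123561 counts (log2 fold change 0.83, 95% interval 0.82 to 0.84). ELOVL6, which elongates palmitate to stearate just before SCD acts, lies on chromosome 4 between 110045846 and 110199199 (ENSG00000170522) and gave 1779 and 1349 counts (log2 fold change -0.37, 95% interval -0.47 to -0.27). ELOVL6 was the lowest of the 8 genes, while SCD was the highest of the enzymes among them, below SREBF1. The ratio of SCD to ELOVL6 in FPKM was 55.4 without 9-cis-RA and 127 with it.

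Changes can also be given relative to SREBF1, which needs no scaling of the libraries. Because every gene is set against the same reference, the order of the log2 fold changes is kept by construction and is no added support. On the log2 scale, the change of SCD relative to that of SREBF1 was -0.69 (95% interval -0.75 to -0.63), that of ACACA -0.80 (-0.87 to -0.72) and that of FASN -0.94 (-1.0 to -0.88). For MLXIPL it was -1.33, for ACLY -1.61, for ACACB -1.73 and for ELOVL6 -1.89 (-2.01 to -1.77). No enzyme had as large a change as SREBF1 in these counts, and SCD came nearest. SCD, ACACA and FASN were above MLXIPL, the other regulator gene compared. Whether the enzymes follow either regulator was not tested.

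**Figure D2:**
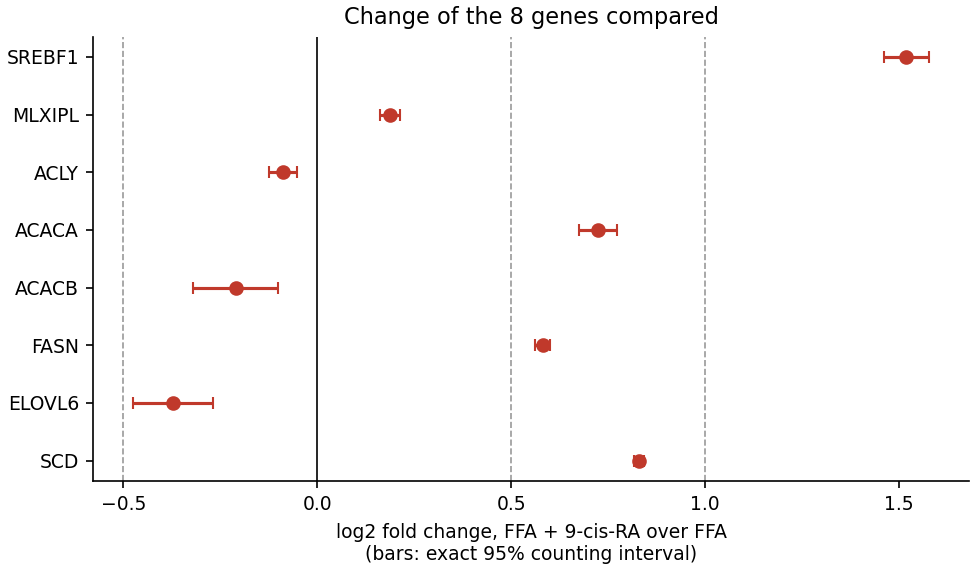
The log2 fold change, FFA + 9-cis-RA over FFA, of the 8 genes with at least 10 counts, with 1 point per gene and bars for the exact 95% counting interval (dashed lines at -0.5, 0.5 and 1). Values run from -0.37 for ELOVL6 to 1.52 for SREBF1, and no interval crosses 0.

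Of the 8 genes compared, 5 were higher and 3 lower with 9-cis-RA, and the median log2 fold change was 0.38, beside -0.02 over the 20431 genes compared. Those above 0.5 were 4, namely SREBF1, SCD, ACACA and FASN, a range where 9.03% of all genes compared and 1.73% of those with at least 1000 counts lay. None was below -0.5, where 14.3% and 4.38% lay. SREBF1 alone was above 1, beside 3.37% of all genes compared and 0.204% of those with at least 1000 counts, and 0 of the 8 were below -1, beside 4.9% and 0.66%. Each of the 8 genes had at least 1000 counts, so the shares over well-counted genes are the nearer background. The set was proposed with results of these data known, so these counts are a description.

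All 8 intervals left out 0, with 5 wholly above it and 3 wholly below. At this depth that says little, since 22.5% of all genes compared had an interval wholly above 0 and 25.7% one wholly below, and among genes with at least 1000 counts these were 34.4% and 34.7%. The sizes give more contrast. Among the 10298 well-counted genes, 42 had a higher value than SCD, 57 a higher one than ACACA and 106 a higher one than FASN, whereas 802 had a lower value than ELOVL6 and 1750 a lower one than ACACB.

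**Figure D3:**
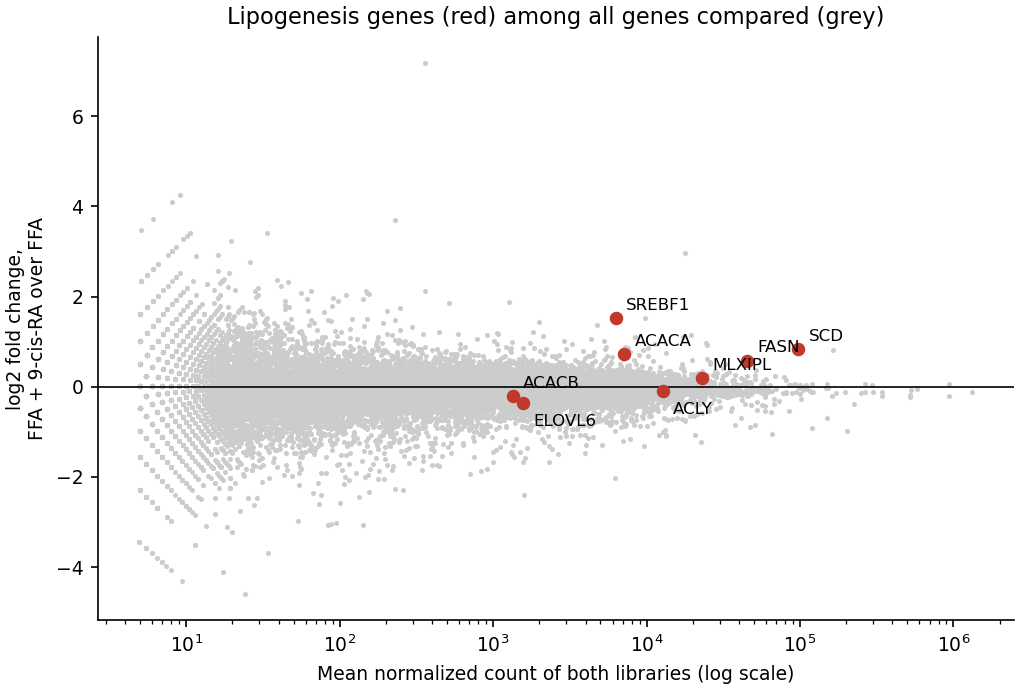
Each grey point is 1 of the 20431 genes compared, with the mean normalized count of both libraries on a log axis and the log2 fold change, FFA + 9-cis-RA over FFA, on the vertical axis. The 8 lipogenesis genes (red) lie where the cloud is narrow: SREBF1, SCD, ACACA and FASN stand at its upper edge, and MLXIPL, ACLY, ACACB and ELOVL6 lie within it.

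Sequence upstream of the annotated starts was examined because genes with higher and lower counts lay side by side in 1 pathway. RefSeq windows of GRCh38.p14, from 250 bases before to 50 after a start, were matched for 9 of the 10 genes, 13 windows in all. FASN had none. The motifs below were searched on both strands, and matches of 1 motif may overlap. TCACNCCAC, a core of the sterol regulatory element bound by SREBPs, was held by 1.13% of all 35116 windows of this length. CACGTG, the E-box, was held by 7.26%, and AGGTCA, the hexamer read by nuclear receptors, by 13.8%. CCAAT, bound by NF-Y, was held by 34.6%, and GGGCGG, bound by SP1, by 45%. Stretches are shown for the gene with the largest difference, the most abundant gene and the gene with the lowest log2 fold change, with every match in capitals and a minus-strand match printed as the reverse complement of the motif. They lie at chr17:17837012-17837086 on the minus strand, chr10:100346993-100347232 on the plus strand and chr4:110198726-110198830 on the minus strand.
SREBF1: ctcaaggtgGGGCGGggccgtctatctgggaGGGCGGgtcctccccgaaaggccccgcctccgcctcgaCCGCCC
SCD: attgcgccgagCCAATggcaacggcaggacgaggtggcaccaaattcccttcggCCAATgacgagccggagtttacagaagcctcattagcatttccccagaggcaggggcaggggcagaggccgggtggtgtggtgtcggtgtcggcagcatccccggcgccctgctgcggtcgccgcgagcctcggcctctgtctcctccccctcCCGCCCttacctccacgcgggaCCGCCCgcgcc
ELOVL6: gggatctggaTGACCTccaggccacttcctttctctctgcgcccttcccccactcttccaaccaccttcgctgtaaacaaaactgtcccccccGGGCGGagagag

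GGGCGG was found in at least 1 window of 8 genes and CCAAT in those of 5. These are counts of genes, some with more than 1 window, so they are not like the shares of windows above. SREBF1 held 3 GGGCGG matches and no other motif, SCD held 2 CCAAT and 2 GGGCGG matches, and ELOVL6 held 1 AGGTCA and 1 GGGCGG match. The 1 window of SREBF1 lies at the outermost start of the gene, so any start further inside it was not examined. ACACA, which was higher, and ACLY, which was lower, both held CCAAT and GGGCGG. The hexamer AGGTCA was found for ELOVL6 and in the most downstream of the 3 ACACA windows, and TCACNCCAC and CACGTG in no window of the group. A match is a description of the letters, and the absence of one says only that these letters are not in these windows.

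The genome neighbours of the 8 genes were read as a local background, taking on each side the nearest protein-coding gene with 100 or more counts that does not overlap the gene itself. RAI1, which overlaps SREBF1, was therefore not among them, and its log2 fold change was 0.11. Of these 16 neighbours, 1 was above 0.5 on the log2 scale and 0 were below -0.5, beside 9.03% and 14.3% of all genes compared. Those shares include genes with as few as 10 counts, fewer than any neighbour had. Among genes with at least 1000 counts they were 1.73% and 4.38%, so 1 and 0 of 16 are near that background. The median of the neighbours was -0.04. The 1 neighbour above 0.5 was TOM1L2, 6.5 kb from SREBF1 on its upstream side and on the same strand. It had 805 and 1135 counts and a log2 fold change of 0.52 (0.39 to 0.66). On the other side of SREBF1, PEMT, a phosphatidylethanolamine methyltransferase gene at 219 kb, had 757 and 698 counts and a value of -0.09 (-0.24 to 0.06).

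TADA2A starts 49 bases from ACACA on the opposite strand. It gave 678 and 623 counts (log2 fold change -0.09, 95% interval -0.25 to 0.06), against 0.72 for ACACA. CCDC57, 3.17 kb upstream of FASN, had 2303 and 2261 counts and a value of 0.00 (-0.08 to 0.09). PKD2L1 and SEC31B beside SCD were at -0.11 and -0.01, with intervals that included 0.

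**Figure D4:**
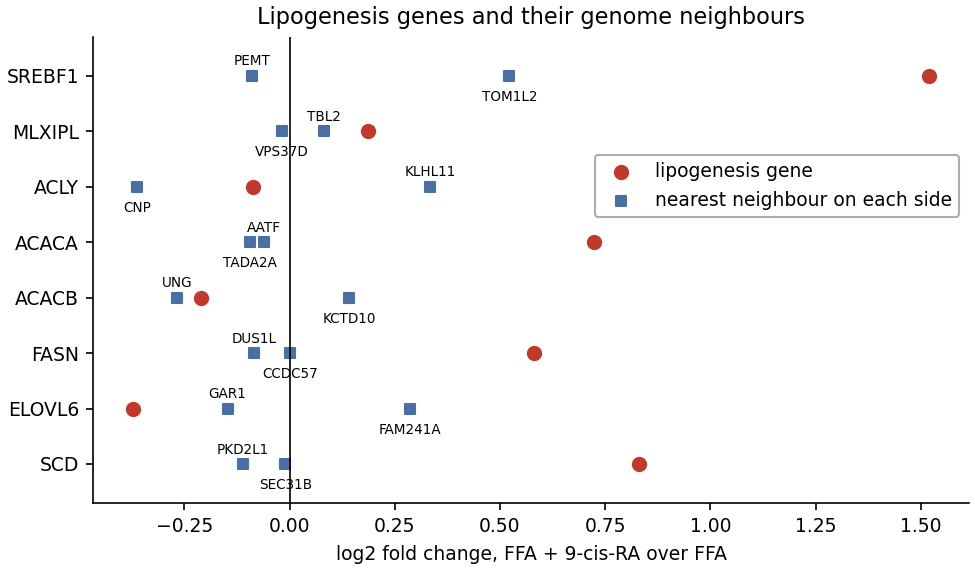
The log2 fold change, FFA + 9-cis-RA over FFA, of each of the 8 lipogenesis genes (red circles) and of the nearest non-overlapping protein-coding gene with at least 100 counts on each side (blue squares, 1 library per group). The neighbours lie between -0.36 for CNP and 0.52 for TOM1L2, while SREBF1, SCD, ACACA and FASN lie above all of their own neighbours.

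SREBP precursors sit in the endoplasmic reticulum with SCAP, are held there by INSIG proteins and are cut by the proteases of MBTPS1 and MBTPS2 once in the Golgi. Of 11 genes of this machinery, 10 were compared, 8 of them higher and 2 lower, with a median log2 fold change of 0.13. The lower pair were SREBF2, which encodes the factor that drives cholesterol synthesis, and INSIG2. SREBF2 gave 8674 and 6545 counts (log2 fold change -0.38, 95% interval -0.43 to -0.33), and INSIG2 gave 3189 and 2191 counts (log2 fold change -0.51, 95% interval -0.59 to -0.43).

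The SREBP genes therefore differed in opposite directions. In FPKM, SREBF1 stood at 0.347 of the SREBF2 level without 9-cis-RA and at 1.29 times that level with it, a relative change of 3.73-fold (3.54 to 3.92). SCAP was at 0.17 (0.11 to 0.22), and MBTPS2 and the ubiquitin ligase gene RNF139 were the highest of the list at 0.28 and 0.26. Another gene overlaps 13.4% of the exonic bases of MBTPS2 on its own strand, and such shared reads were left out of the counts. INSIG1 had 0 counts in both libraries, with no overlapping gene on its strand, and the reason was not tested.

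Of 15 transcription factors and partners that act on these genes, 0 were past 0.5 in either direction, and the median was -0.03. Among all genes with at least 1000 counts, 1.73% lay above 0.5 and 4.38% below -0.5, so 0 of 15 is near that background. RXRA, the receptor gene whose product binds 9-cis-RA, gave 8291 and 5978 counts (log2 fold change -0.44, 95% interval -0.49 to -0.40). The LXR genes NR1H3 and NR1H2 stood at -0.03 (-0.13 to 0.07) and -0.21 (-0.31 to -0.12). MLX, the obligate partner of ChREBP, was at -0.26 (-0.32 to -0.20), while MLXIP, the paralog of MLXIPL, was at 0.32. The thyroid hormone receptor genes were split, with THRA at 0.30 and THRB at -0.27.

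Around FASN and the carboxylases, 14 genes of regulators and cofactor enzymes were read. MID1IP1, the paralog of THRSP, whose product binds acetyl-CoA carboxylase and promotes its polymerization, gave 7324 and 12946 counts (log2 fold change 0.85, 95% interval 0.81 to 0.89). That is close to the value of SCD. The others with at least 100 counts lay between -0.43 for PRKAB2 and 0.41 for PRKAG1, which encode a beta and a gamma subunit of AMP-activated kinase, and TRIB1 stood at -0.10. The median of the list was 0.04, and 2 of its 14 genes were above 0.5. In that range lay 9.03% of all genes compared and 1.73% of those with at least 1000 counts. Beside MID1IP1, the other gene of the list above 0.5 was PRKAG2, with 4 and 7 counts and an interval that included 0. Each of the other genes of the list had at least 1000 counts.

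Genes that supply acetyl-CoA and NADPH were close to the background. For acetyl-CoA and citrate, 5 of 10 genes were higher and 5 lower, with a median of -0.02. CS, citrate synthase, was the highest at 0.41 (27428 and 35809 counts), followed by the citrate importer gene SLC13A5 at 0.10, and the lowest were PC, pyruvate carboxylase, at -0.29 and the pyruvate carrier gene MPC2 at -0.26. For NADPH, the median of 9 genes was -0.04. PGD of the pentose phosphate pathway was at 0.31, and TALDO1 and ME3, a mitochondrial malic enzyme, at -0.17 and -0.56.

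Of the other elongation and desaturation genes, 13 of 15 were compared, with 10 higher, 3 lower and a median of 0.06. ELOVL3, an elongase of long saturated chains, was the highest at 0.73 but had 81 and 132 counts (95% interval 0.32 to 1.15), and TECR, the reductase shared by all elongases, was at 0.32. ELOVL2, which elongates polyunsaturated chains, stood at -0.48, lower like ELOVL6, and FADS1 at -0.08. The mitochondrial fatty acid synthesis pathway, a separate system that makes the lipoic acid precursor, had a median of -0.04 over 7 genes, with MECR at 0.17, MCAT at 0.07, NDUFAB1 at -0.13 and OXSM at -0.15. Its lowest gene was HSD17B8 at -0.61, with 58 and 37 counts (95% interval -1.26 to -0.0014).

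Genes that share the regulators of lipogenesis but lie outside the pathway differed in direction among themselves. Of 11 LXR targets outside fatty acid synthesis, 9 were compared, 4 were above 0.5 and 1 was below -0.5, with a median of 0.12. Of all genes compared, 9.03% lay above 0.5 and 14.3% below -0.5, and of those with at least 1000 counts 1.73% and 4.38%. LPCAT3, which builds polyunsaturated phospholipids, and MYLIP, a ubiquitin ligase gene, were at 1.10 and 0.77. PLTP and ABCG8 were the lowest with at least 100 counts, at -0.50 and -0.22, and the gene below -0.5 was CETP, with 16 and 7 counts and an interval that included 0. Of 11 ChREBP targets, 10 were compared, 2 were higher and 8 lower, 4 of them below -0.5, with a median of -0.37. PKLR, the liver pyruvate kinase gene, gave 4133 and 1889 counts (log2 fold change -1.10, 95% interval -1.18 to -1.02), and KHK, ketohexokinase, was at -0.53. Not all of those below -0.5 were well counted: G6PC1 had 7 and 4 counts and an interval that included 0. ARRDC4 and TXNIP, the glucose-responsive arrestin genes of the same list, were at 0.41 and 0.02.

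Downstream of fatty acid supply, 6 SREBP targets of glycerolipid synthesis had a median of -0.37, with 2 higher and 4 lower. GPAM, whose product starts triglyceride synthesis, gave 16292 and 9847 counts (log2 fold change -0.70, 95% interval -0.74 to -0.66), and PNPLA3 was at -0.46, while LPIN1 and AGPAT2 were at 0.32 and 0.20. Of 17 cholesterol synthesis and LDL uptake genes, 2 were higher and 15 lower, with a median of -0.13. Below -0.5 were 2 of them, beside 14.3% of all genes compared and 4.38% of those with at least 1000 counts. HMGCS1, which makes HMG-CoA, was the lowest at -0.96, and DHCR7, which acts late in cholesterol synthesis, the highest at 0.31. Same-strand overlap with another gene covered at most 4.64% of the exonic bases of the highest and lowest genes named from each list, MBTPS2 excepted.

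**Figure D5:**
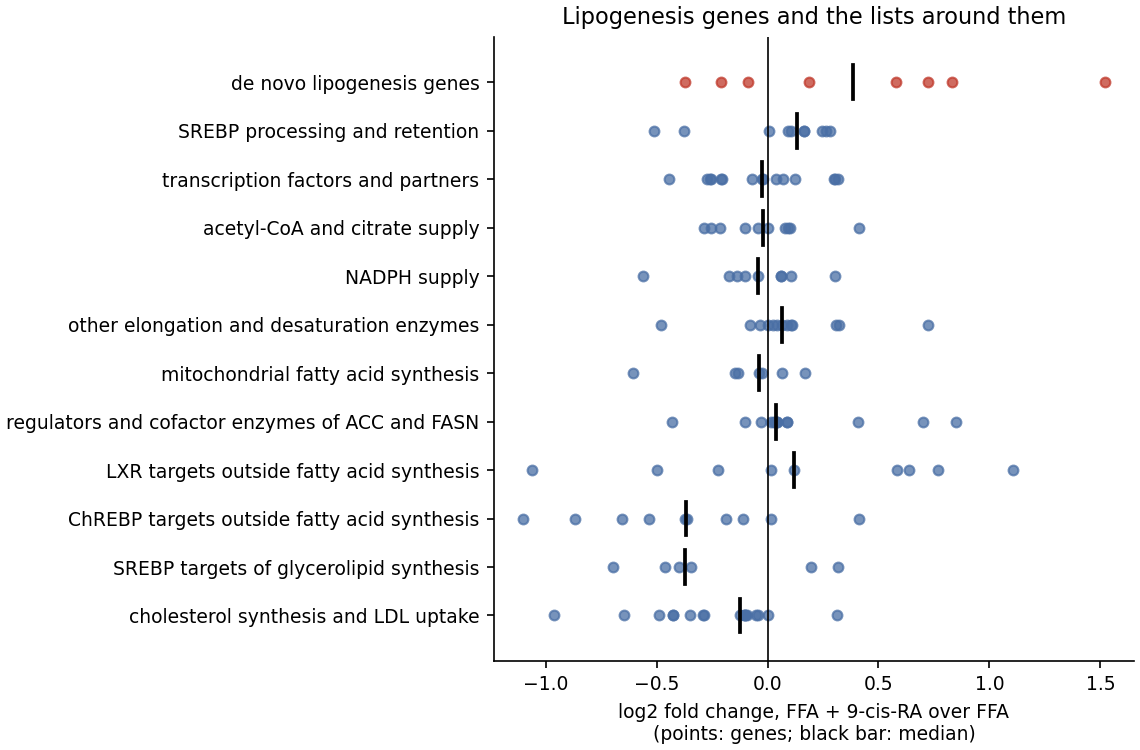
The log2 fold change, FFA + 9-cis-RA over FFA, of the genes compared in each list, with 1 point per gene and a black bar at the median (1 library per group). The lipogenesis genes (red) have the highest median, 0.38, and run from -0.37 to 1.52, while the ChREBP and glycerolipid lists have medians of -0.37.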

How the data were processed

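Poly(A) RNA was sequenced as stranded libraries, 1 per group, and the authors deposited unnormalized counts of fragments for each gene. Per the file headers, featureCounts version 2.0.1 required both ends of a pair to map, checked fragment length and used the reverse strand (setting 2). Multi-mapping reads, and reads shared by genes of 1 strand, were not counted, which lowers overlapping genes. The submitters' processing notes name GRCh38 and DESeq2. The aligner and annotation release are not given in the sources used here.

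Identifiers were joined to gene symbols and to GENCODE release 29, used for biotype (58516 of 60623 entries matched). R version 4.3.3 gave DESeq2 size factors (version 1.42.0) and edgeR TMM factors (version 4.0.16). Intervals were computed with scipy 1.17.1, trends with statsmodels 0.14.6, tables with pandas 2.3.3 and numpy 2.4.6, and plots with matplotlib 3.10.9, all under Python 3.11.15. Log2 fold changes used a pseudocount of 1, which understates changes of low genes, over genes with at least 10 counts in both libraries together. Folds of 0.5 and 1 on the log2 scale were used as thresholds. Intervals are Clopper-Pearson for shares and exact conditional intervals for the odds ratio of 2 genes, at the 95% level. FPKM values used the exon length of the deposited tables. Intervals and the floor of 3 counts cover counting error only.

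DESeq2 could not be fitted as a test with 1 library per group, so no p-value is given. The members, lists and thresholds were chosen with earlier results of these data known. Beside the members, the genes named were a fixed set of regulators, the nearest neighbours, and the 2 highest and 2 lowest genes of each list among those with at least 100 counts, some of which are not reported here. PRKAG2, CETP, HSD17B8, RAI1, G6PC1, ALB, GPC3, AFP and TTR were named after their values were seen. The fold changes and their intervals were tested on simulated counts that held counting error only and used the same size factors. Such a test says nothing about replicate error. The settings varied were the scaling (TMM or library totals), the pseudocount (0.1 or 5), the count minimum (none or 50), the gene set (protein-coding) and the removal of loess trends (span 0.3) on gene length and expression.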

Additional observations from a re-analysis of the deposited data

How the results depend on the processing

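No paired analysis was possible because each group has 1 library, and for the same reason none could be left out. All 8 member genes kept their direction under every scaling, pseudocount and trend alternative: SREBF1 ran from 1.49 to 1.57, SCD from 0.83 to 0.92, ACACA from 0.69 to 0.77, FASN from 0.55 to 0.65, MLXIPL from 0.19 to 0.24, ACLY from -0.09 to -0.04, ACACB from -0.25 to -0.16 and ELOVL6 from -0.40 to -0.32. Of 241 values under an alternative, 205 stayed within the limit set for them and 36 moved further. The limit was the counting interval for single genes and shares, and 1.5 times the main count for numbers of genes. Many of the 241 values are medians, for which no exact counting interval is described, and the limit used for them is not reported here.

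The members' median was 0.43 with total-count scaling, 0.44 with the expression trend removed and 0.31 without a count minimum, where THRSP, with 3 counts in all, made 1 member below -0.5. Total-count scaling put the cholesterol list at -0.077, and a minimum of 50 counts put LXR targets at 0.35. The members' share of counts was 0.283% and 0.451% without mitochondrially encoded genes, and 0.265% and 0.424% of protein-coding counts.

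Over all genes, a pseudocount of 5 left 341 above 1 and 594 below -1. Without a count minimum 5476 were above 0.5, 6880 below -0.5, 3771 above 1 and 2493 below -1. With at least 50 counts these were 739, 1482, 153 and 361, and among protein-coding genes 767, 1356, 270 and 446. ME1 and THRSP had too few counts to compare at this depth, and INSIG1 had 0 counts in both libraries, for which the cause was not tested.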
